A study of Mus musculus with 8 samples.

Results

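Mouse chromatin regions that were less accessible without Etv2 and more accessible when Etv2 was induced were examined in sorted cells of day 4 embryoid bodies. The set holds 718 of the 168842 regions in the deposited table. Its members were chosen from group means of the normalized reads per region, with each ratio taken as the log2 of 2 group means after 5 was added to both. A member had a mean of at least 20 in wild-type double-positive cells, a knockout over wild-type ratio of at most -0.7 and an induced over wild-type ratio of at least 0.7. Chromosome 4 from 85 to 105 Mb of build mm10 was left out, which removed 45 regions that met the other limits. All 8 libraries took part in this choice, so the levels and ratios below describe the members and carry no test.

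The groups hold 2 libraries each. The wild-type line, A2lox.Cre, was sorted into cells with both FLK1 and PDGFRalpha on their surface (WT DP) and cells with FLK1 but no PDGFRalpha (WT SP). KO DP came from an Etv2 knockout line by the first of these sorts (PDGFRalpha+FLK1+). OE SP came from the iETV2 line by the other (PDGFRalpha-FLK1+), after doxycycline at 2 µg/ml from day 2.5. All lines are embryonic stem cells differentiated as embryoid bodies. Each genotype is a cell line of its own, and only OE SP received doxycycline, so Etv2, line and drug cannot be told apart. The labels do not say whether a line is 1 clone or whether the 2 libraries of each group had cultures of their own. P-values then measure only the spread between these libraries, which may be technical. Fewer cells with an open site and less opening per cell cannot be told apart in these bulk samples.

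ETV2 is a transcription factor of the ETS family, whose members bind DNA at a GGAA core. It acts briefly in FLK1+ mesoderm and is required there for the endothelial and blood lineages. A region that needs the factor would lie low in knockout cells, and a region that the factor can open would lie high after induction. FLK1, the product of Kdr, is carried by the mesoderm that forms vessels and blood, whereas PDGFRalpha marks paraxial and cardiac mesoderm.

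The libraries held 12477601 to 18853733 reads in regions. Inside Etv2, the region chr7:30634628-30635028 measured 0.840 and 0 normalized reads in KO DP, while the other groups had 563 and 611 (WT DP), 475 and 493 (WT SP) and 425 and 645 (OE SP). At an end of Pdgfra, chr5:75149925-75150325 measured 580 and 657 in WT DP and 686 and 638 in KO DP, against 272 and 270 in WT SP and 108 and 129 in OE SP. A second Pdgfra region, chr5:75151130-75151530, did not follow the sort, with 142 and 167 in WT DP, 139 and 127 in KO DP, 163 and 150 for WT SP, then 86.1 and 124 for OE SP. At an end of Kdr, chr5:75978321-75978721 lay between 333 and 519 in every library. A further Kdr region, chr5:75933645-75934045, was not level, with 26.2 and 26.0 in WT DP, 26.03 and 34.5 in KO DP, 34.6 and 36.7 for WT SP, then 87.5 and 139 for OE SP. None of the 43 regions assigned to Kdr, the 28 of Pdgfra or the 3 of Etv2 is a member.

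Among members, 24 overlapped a RefSeq promoter window (GRCm38.p6, the assembly behind mm10) of 250 bases before to 50 after a gene start. The windows of 6 genes are printed 5′ to 3′ on the gene's strand. They are the only member in a window of a lineage list gene (Itga2b), genes with large ratios or known in blood cells (Arhgap25, Lax1, Dennd1c, Cd244a) and Steap3. Those beside Itga2b were picked after their values were seen, so the printed genes do not stand for the 24. Windows not printed include those of Adgrf1, Cers3, Prr23a2, Zfp345, Gm40441 and Gm51752. Capitals mark the letters CAGGAA or CCGGAA, forms of the ETS core, on either strand.
Itga2b, chr11:102469834-102470133, minus strand: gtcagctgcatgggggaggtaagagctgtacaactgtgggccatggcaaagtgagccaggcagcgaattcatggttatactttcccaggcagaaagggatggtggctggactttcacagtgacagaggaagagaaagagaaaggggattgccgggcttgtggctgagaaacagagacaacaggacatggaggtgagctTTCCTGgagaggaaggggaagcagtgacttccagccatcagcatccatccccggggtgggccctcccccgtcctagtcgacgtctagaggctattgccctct
Arhgap25, chr6:87496278-87496577, minus strand: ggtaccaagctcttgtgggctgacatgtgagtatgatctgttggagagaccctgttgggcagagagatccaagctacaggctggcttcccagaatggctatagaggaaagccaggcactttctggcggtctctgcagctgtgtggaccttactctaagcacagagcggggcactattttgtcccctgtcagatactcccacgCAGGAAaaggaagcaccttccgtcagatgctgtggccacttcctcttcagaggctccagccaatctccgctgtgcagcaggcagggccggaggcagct
Lax1, chr1:133690059-133690358, minus strand: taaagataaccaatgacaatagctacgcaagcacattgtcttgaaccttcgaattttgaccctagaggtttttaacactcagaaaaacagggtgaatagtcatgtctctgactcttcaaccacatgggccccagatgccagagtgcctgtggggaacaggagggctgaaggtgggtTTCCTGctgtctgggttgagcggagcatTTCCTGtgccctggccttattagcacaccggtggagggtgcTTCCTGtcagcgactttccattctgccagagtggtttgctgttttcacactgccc
Steap3, chr1:120258829-120259128, minus strand: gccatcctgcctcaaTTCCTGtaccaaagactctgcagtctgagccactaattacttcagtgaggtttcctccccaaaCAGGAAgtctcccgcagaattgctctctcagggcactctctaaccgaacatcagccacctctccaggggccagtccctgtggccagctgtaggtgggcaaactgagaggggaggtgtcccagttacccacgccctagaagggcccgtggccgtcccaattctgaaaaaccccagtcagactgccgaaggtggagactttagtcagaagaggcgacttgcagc
Dennd1c, chr17:57078449-57078748, minus strand: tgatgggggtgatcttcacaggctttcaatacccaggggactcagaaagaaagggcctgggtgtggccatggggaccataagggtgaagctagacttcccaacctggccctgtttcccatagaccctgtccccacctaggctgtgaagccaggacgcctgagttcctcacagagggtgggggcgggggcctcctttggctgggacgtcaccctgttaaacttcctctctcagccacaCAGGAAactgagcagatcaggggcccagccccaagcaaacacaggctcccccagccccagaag
Cd244a, chr1:171558943-171559242, plus strand: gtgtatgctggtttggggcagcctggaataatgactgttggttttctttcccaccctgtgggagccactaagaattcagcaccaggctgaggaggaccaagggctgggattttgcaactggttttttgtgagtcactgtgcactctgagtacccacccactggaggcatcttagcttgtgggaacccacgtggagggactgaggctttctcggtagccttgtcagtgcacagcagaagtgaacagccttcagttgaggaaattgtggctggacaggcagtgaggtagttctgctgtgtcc

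Counted from the gene start, CAGGAA began at base -52 in Itga2b, -48 in Arhgap25, -13 in Dennd1c and -235 and -172 in Steap3. It began at -74, -46 and -5 in the printed 1 of 2 Lax1 windows, and the Cd244a window held neither form. The Itga2b match lay outside its member, which overlapped only the first 156 printed bases. The other printed matches lay inside their members. Over the 24 genes whose windows overlapped members, 17 (70.8%) held CAGGAA on either strand. The share was 59.2% of 319 genes for regions higher in OE SP but not lower in KO DP, and 28.5% of 316 genes for regions lower in KO DP but not higher in OE SP. It was 27.6% of 12436 genes over all regions with a WT DP mean of at least 20 outside the chromosome 4 block, and 33.4% over all 27025 genes with a window. Within the part of each window that lay inside the region, the shares were 62.5% for members, 50.8%, 21.2% and 22.1% in that order. The share of member promoters with CAGGAA thus lay nearer to that of the other induced regions than to that of the other knockout-low regions. The windows of Gm14124 and Zfp345, both with CAGGAA, share long runs of the same letters, so the 24 genes are not all separate sequences. No test was made of these shares.

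The letters CCGGAA stood in a window of 4 of the 24 member genes (16.7%), as in 15.7% of the induced-only, 13.0% of the knockout-low-only and 26.5% of the background genes. The GATA letters AGATAA stood at 1 member gene (4.17%), against 20.4% of the induced-only, 7.91% of the knockout-low-only and 7.1% of the background genes. The E-box CAGCTG stood at 8 (33.3%), against 25.4%, 15.5% and 17.3% in that order. The E-box CAGATG stood at 5 (20.8%), against 18.2%, 20.3% and 12.9%, and the SOX letters ACAAAG at 9 (37.5%), against 24.1%, 13% and 14.4%. The AP-1 letters TGACTCA stood at 1 (4.17%), against 9.09%, 3.16% and 4.21%. The TEAD letters GGAATG stood at 3 (12.5%), against 18.8%, 11.1% and 13%. The forkhead letters GTAAACA stood at 0 of the 24 genes, against 6.27%, 3.16% and 2.75%. Some genes have several windows, and over windows the median GC content was 52.7% for members, 53.0% for induced-only, 58.7% for knockout-low-only and 61.0% for background regions. Its part in the motif shares was not tested. All motifs were searched on both strands, and GGAATG can overlap the end of either ETS form. A match describes the sequence, not binding.

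The values of the members at these starts are given as a description, since the rule chose them on these contrasts. In the limma fit described below, those at Arhgap25, Steap3 and Cd244a were called lower in KO DP. Those at Itga2b, Lax1 and Dennd1c were not. At Itga2b, which encodes the early blood marker CD41, chr11:102469978-102470378 measured 17.6 and 9.51 normalized reads in KO DP against 28.2 and 24.3 in WT DP, 141 and 153 for WT SP, then 333 and 586 for OE SP. No 2 groups overlapped, and the step between the wild-type groups was larger than the step from WT DP to KO DP. At Arhgap25, a GTPase-activating protein gene of blood cells, chr6:87496122-87496522 measured 10.9 and 10.7 in KO DP, 31.1 and 29.6 in WT DP, 27.5 and 27.8 for WT SP, then 136 and 234 for OE SP. Here the wild-type groups lay close together, with OE SP apart from every other library. At Lax1, an adaptor of lymphocyte signalling, chr1:133689923-133690323 measured 41.1 and 38.0 in KO DP, 77.7 and 67.4 in WT DP, 82.4 and 63.4 for WT SP, then 192 and 235 for OE SP. At Steap3, an iron reductase of red cell precursors, chr1:120258789-120259189 measured 21.8 and 22.6 in KO DP, 47.6 and 51.2 in WT DP, 50.9 and 65.4 for WT SP, then 193 and 185 for OE SP. At Dennd1c, which encodes a regulator of membrane traffic, chr17:57078299-57078699 measured 20.2 and 29.7 in KO DP, 50.5 and 39.5 in WT DP, 52.9 and 65.4 for WT SP, then 135 and 200 for OE SP. In these last 3 regions WT DP and WT SP lay near each other, between KO DP and OE SP. At Cd244a, chr1:171558668-171559068 measured 10.9 and 11.9 in KO DP, 50.5 and 53.9 in WT DP, 37.7 and 29.7 for WT SP, then 90.5 and 56.5 for OE SP. Its WT SP libraries lay below those of WT DP, and its 18 neighbours within 50 kb had a median knockout ratio of -1.88, close to its own of -1.80.

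Other members in promoter windows included the one with the highest OE SP level of the 24, chr12:72844148-72844548, at the RefSeq gene Gm40441. It measured 48.7 and 52.3 in KO DP, 91.2 and 96.1 in WT DP, 184 and 157 for WT SP, then 820 and 1041 for OE SP. The member with the largest induced ratio of the 24, 2.57, was chr1:165717665-165718065 at the RefSeq gene Gm51752, 7.60 kb from Rcsd1. It measured 4.198 and 11.9 in KO DP, 33.01 and 17.96 in WT DP, 55.98 and 65.4 for WT SP, then 333 and 436 for OE SP. No 2 groups overlapped in either region. The window of Gm40441 held neither CAGGAA nor CCGGAA, whereas that of Gm51752 held CAGGAA.

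Averaged over groups, members had a median signal of 48.6 normalized reads. It was 50.0 over regions with a WT DP mean of at least 20 outside the block, and 36.0 over all regions. The median over members of the group mean was 15.1 normalized reads in KO DP, 33.4 in WT DP, 37.5 in WT SP and 98.5 in OE SP. In WT DP it was 51.8 over regions with a mean of at least 20 there, outside the block, and 33.2 over induced-only regions. By library the medians were 15.95 and 14.3 in KO DP, 34.0 and 32.3 in WT DP, 38.7 and 38.7 for WT SP, then 94.1 and 103 for OE SP. The medians of replicates thus lay close, which does not show that replicates agreed region by region. The WT DP mean was under 30 in 295 members and at least 100 in 59. OE SP replicate 2 was above replicate 1 in 418 members (58.2%).

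**Figure D1:**
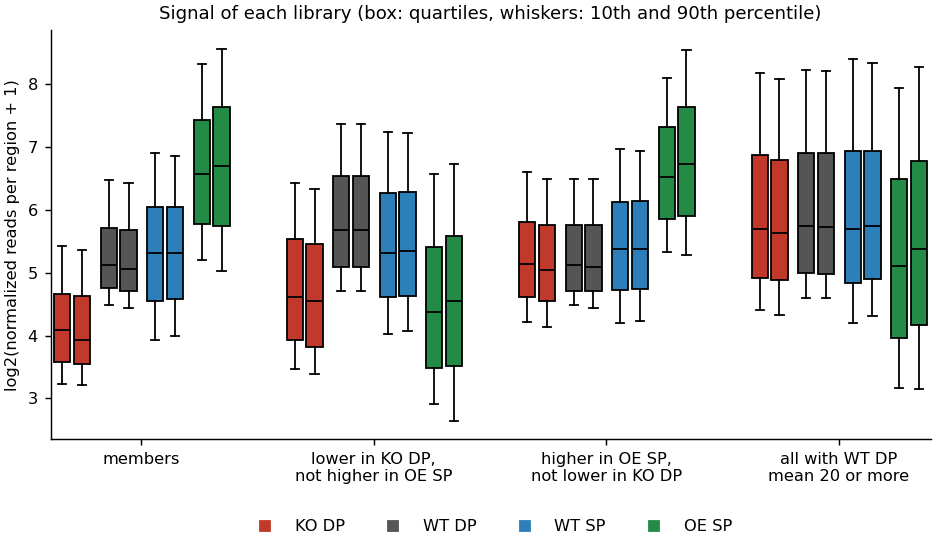
Log2(normalized reads per region + 1) in each of the 8 libraries for members, regions low in KO DP alone, regions high in OE SP alone and all regions with a WT DP mean of at least 20, with colours for the groups, boxes for the quartiles, lines for medians and whiskers for the 10th and 90th percentiles. Members are lowest in both KO DP libraries and highest in both OE SP libraries, with medians near 15 and 98 normalized reads, while the regions that are low in KO DP alone are also low in OE SP.

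The ratio of KO DP to WT DP had a median of -0.87 over members and reached -3.69, and 240 members lay between -0.8 and the limit of -0.7. The ratio of OE SP to WT SP had a median of 1.16 and reached 3.58. Ratios of at least 1 in size in both were found in 130 members. The knockout side of the set thus sits close to its limit, while 449 members exceeded 1 on the induced side.

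At the limits, the values ran on without a step. A region near Slc35f3 entered with a knockout ratio of -0.70005 and one near Pax6 with -0.70035, while regions near Cnr1 (-0.69965) and Nav1 (-0.69961) stayed out. For the induced ratio, regions near Tmod3 (0.70006) and Dnah7a (0.70147) entered, and a region at chr12:115621290-115621690 (0.69965) and one near Ephb1 (0.69914) did not. For the WT DP mean, regions near Wdr59 and Ldb2 entered at 20.00042, and regions near Rap1gap2 and Vash1 stayed out at 19.96416.

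**Figure D2:**
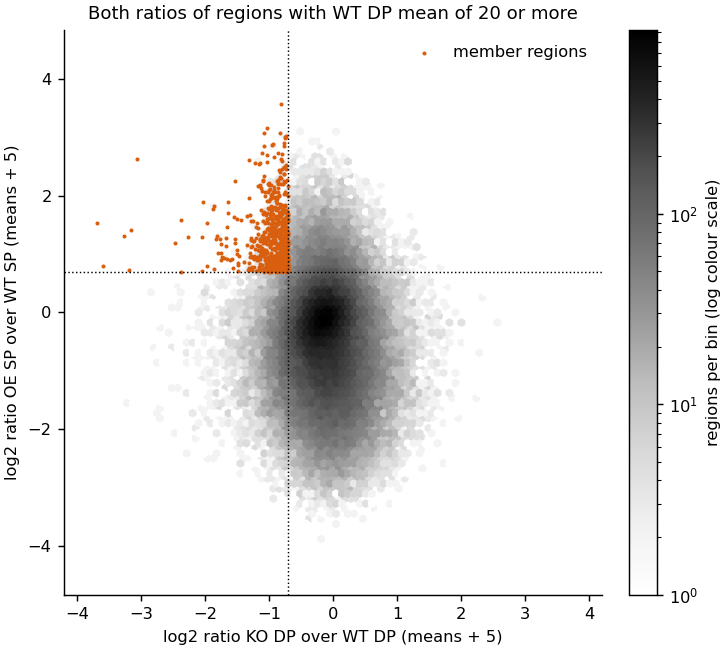
Log2 ratio of KO DP over WT DP (horizontal) and of OE SP over WT SP (vertical) for regions with a WT DP mean of at least 20 outside the chromosome 4 block, as a density in grey, with members in orange and the limits of -0.7 and 0.7 as dotted lines. Ratios below -4.2 are not drawn. Members form the upper left edge of 1 continuous cloud, with a few beyond a knockout ratio of -3.

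The KO and OE comparisons share no library, so the meeting of both changes can be counted. Of 126019 regions with a WT DP mean of at least 20 outside the block, 8440 met the knockout limit and 8242 the induction limit. Members were 8.51% of the former and 8.71% of the latter. Over all 126019 regions, 6.54% met the induction limit and 6.70% the knockout limit. Regions low in KO DP were more often low than high in OE SP, with 44.1% at or below -0.7 against 34.6% of all regions. Of the 4339 regions at or above 0.7 in KO DP, 6.08% met the induction limit and 54.5% lay at or below -0.7 in OE SP. The opposite set, high in KO DP and low in OE SP, held 2366 regions.

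KO DP lay below WT DP in both pairs of libraries without overlap in 716 members, against 40.3% of the 126019 regions. OE SP lay above WT SP without overlap in 704 members, against 15.9%. The rule used these contrasts, and nothing is read from the counts. In the limma fit of all regions, 246 of 718 members (34.3%) were called lower in KO DP, where 2.21% of all 167573 regions tested were, at an adjusted p below 0.05. The count of members called lower fell without any 1 library of KO DP, WT DP or WT SP and rose without either library of OE SP. So did the count over all regions. Fitting KO DP and WT DP alone gave 693 members, where 21995 of the 167573 regions were called lower. DESeq2 gave 79 members, where 1373 of all regions were. In OE SP, 670 members (93.3%) were called higher, where 16.6% of all regions were. Both calls were made for 244 members, and 46 had neither. The share of all regions with both calls was not counted. All 718 passed the filter on low values, which asked that the 8 libraries average 10 or more. For 15 of them, a region near Gm3248 among them, the mean was under 10 with OE SP counted as 0, so these passed only through the group where the rule chose them as high.

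Which regions meet the rule depends on the libraries. Without each library in turn the rule gave 727 to 1084 regions, the highest without KO DP replicate 1, and each of those sets held 532 to 656 of the members. The number of members that met the rule in all 8 such sets was 206 (28.7%), and 532 (74.1%) met it under each of 3 rescalings. The 10 members whose smaller change was largest are described next, followed by those that kept both calls without any 1 library. How many of all regions kept both calls was not counted, so the latter names regions and does not measure the set.

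A region 2.86 kb from Dnah8, an axonemal dynein gene, had the largest smaller change. It spans chr17:30878619-30879019 and measured 7.56 and 5.94 normalized reads in KO DP against 70.9 and 115 in WT DP, 156 and 142 for WT SP, then 956 and 937 for OE SP, with ratios of -3.06 and 2.63. Its 14 neighbouring regions within 50 kb had a median knockout ratio of -1.57. The stretch around this region was thus low in KO DP as well, while the neighbours' induced ratio had a median of -0.57.

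In Pde10a, a cyclic nucleotide phosphodiesterase gene, chr17:8701155-8701555 measured 3.36 and 7.13 in KO DP, 36.9 and 36.8 in WT DP, 51.9 and 54.5 for WT SP, then 204 and 217 for OE SP. In Trpm3, which encodes a cation channel, chr19:22721555-22721955 measured 10.9 and 11.9 in KO DP, 57.3 and 52.1 in WT DP, 64.1 and 66.4 for WT SP, then 298 and 192 for OE SP. No 2 groups overlapped in either region. The 8 neighbours of the former had a median knockout ratio of -0.16 and the 1 neighbour of the latter -0.07, so these were not low in KO DP. The induced ratio of the neighbour at Trpm3 was 0.96.

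In Cog5, a subunit of a Golgi transport complex, chr12:31900416-31900816 measured 15.1 and 13.1 in KO DP, 90.3 and 97.9 in WT DP, 131 and 127 for WT SP, then 309 and 482 for OE SP. In Cdh11, a cadherin gene of mesenchyme, chr8:102707265-102707665 measured 46.2 and 41.6 in KO DP, 115 and 160 in WT DP, 119 and 100 for WT SP, then 359 and 342 for OE SP. In Bpnt1, a nucleotidase gene, chr1:185352099-185352499 measured 19.3 and 19.0 in KO DP, 77.7 and 63.8 in WT DP, 75.3 and 67.4 for WT SP, then 225 and 332 for OE SP. In the last 2 regions the wild-type groups overlapped, whereas in Cog5 both WT SP libraries lay above both WT DP libraries.

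In Tango6, chr8:106714268-106714668 measured 1.68 and 3.57 in KO DP, 23.3 and 22.5 in WT DP, 69.2 and 50.6 for WT SP, then 215 and 218 for OE SP, and its 10 neighbours had a median knockout ratio of -0.76. Near Strn, which encodes the scaffold striatin, chr17:78740332-78740732 measured 5.88 and 3.57 in KO DP, 21.4 and 25.1 in WT DP, 40.7 and 41.6 for WT SP, then 144 and 285 for OE SP. In St6galnac3, a sialyltransferase gene, chr3:153698360-153698760 measured 5.04 and 3.57 in KO DP, 27.2 and 20.7 in WT DP, 23.4 and 18.8 for WT SP, then 47.4 and 113 for OE SP. In this last region OE SP replicate 2 lay well above replicate 1. Near Cd244a, a receptor gene of natural killer cells, chr1:171551368-171551768 measured 4.198 and 5.94 in KO DP, 30.1 and 38.6 in WT DP, 34.6 and 41.6 for WT SP, then 100 and 139 for OE SP. Its 19 neighbours had a median knockout ratio of -1.85, near that of the region itself (-1.97).

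**Figure D3:**
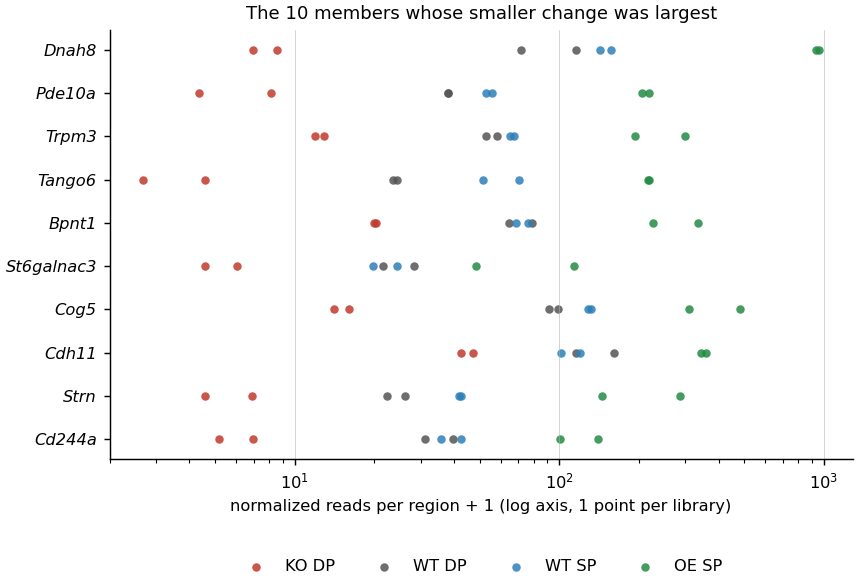
Normalized reads per region + 1 on a log axis for the 10 members whose smaller change was largest, with 1 point per library and 1 row per region, named by its nearest gene. In each row both KO DP points lie to the left of all others and both OE SP points to the right.

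Both calls held without any 1 library in 17 members. Besides 7 of the 10 above, these included 3 regions on chromosome X, 34.9 to 50.5 kb from Pls3, an actin-bundling protein gene. Of these, chrX:75750342-75750742 measured 3.36 and 1.19 in KO DP, 87.4 and 89.8 in WT DP, 105 and 68.4 for WT SP, then 320 and 198 for OE SP. With chrX:75733684-75734084 they formed a run of 4 members among 5 background regions over 17.1 kb, and their 5 non-member neighbours had a median knockout ratio of -1.18. The others included regions near or in Dnah11, Rapgef5, Armt1 and Hdgfl3. A region 57.7 kb from Rapgef5, a Rap GTPase activator gene, at chr12:117458387-117458787, measured 35.3 and 36.8 in KO DP, 89.3 and 99.7 in WT DP, 189 and 196 for WT SP, then 602 and 565 for OE SP. No 2 groups overlapped there, and its neighbours had a median knockout ratio of 0.14. Of the 17, 6 lay in stretches where the neighbours' median knockout ratio was at most -0.7.

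Such stretches held 29 of the 698 members with a neighbour (4.16%), and 357 of 7472 regions that were low in KO DP alone (4.78%). They held 57 of 7253 induced-only regions (0.786%) and 0.996% of all regions with a neighbour. They lay on 11 chromosomes, with 5 members each on chromosomes 8 and 17 and 4 on X. What altered these stretches in the knockout line was not tested. Over all members the neighbours' median knockout ratio was -0.17, against -0.11 for regions in general, and their median induced ratio was -0.30 against -0.36. The 10th percentile of the neighbours' knockout ratio was -0.48, so the stretches around most members were not low in KO DP. Without the 29 members, 224 of 689 were called lower in KO DP and 645 higher in OE SP.

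**Figure D4:**
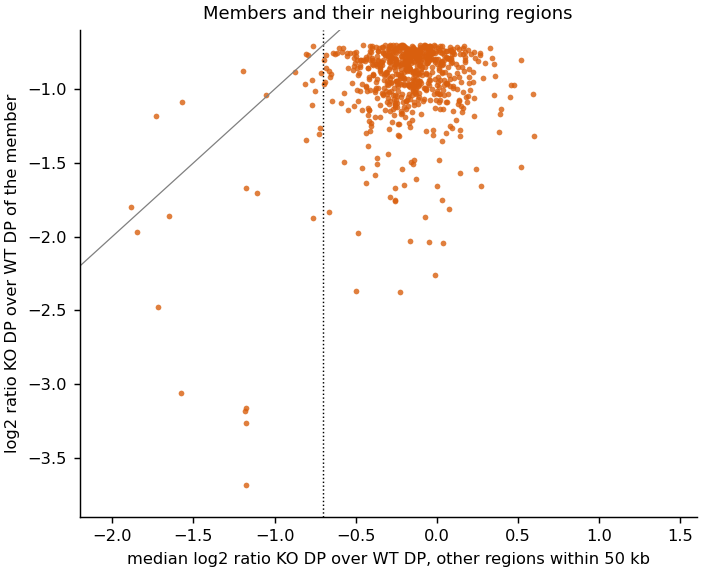
Log2 ratio of KO DP over WT DP of each member (vertical) against the median ratio of other, non-member regions within 50 kb (horizontal), for the 698 members with a neighbour. The dotted line marks -0.7 and the grey line equality. Most members lie below neighbours that centre near -0.17, and 29 lie at or left of the dotted line.

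Only 1 member, chr14:5884335-5884735 near Gm3248, had 0 reads in both KO DP libraries, with 22.3 and 23.4 normalized reads in WT DP, 15.3 and 10.9 for WT SP, then 45.2 and 27.6 for OE SP. Its 3 neighbours had a median knockout ratio of -1.72. Every other member had reads in at least 1 KO DP library.

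Endothelial genes carried the most members among the lineage lists. Of the 9 lists, with 173 genes in all, 18 members were assigned to 17 genes by the nearest protein-coding gene within 100 kb. KO DP lay below WT DP without overlap in 18 of them and OE SP above WT SP in 17. Of all members, 99.7% and 98.05% did so, and of the background regions 40.3% and 15.9%. Called lower in KO DP were 6 and called higher in OE SP 17, where 34.3% and 93.3% of all members were. None lay in a low stretch, the neighbours' median knockout ratios running from -0.35 to 0.11. WT SP lay above WT DP without overlap in 9 and below it in 3. The share of all regions that did so was not counted.

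In the endothelial list, 8 of 407 regions with a WT DP mean of at least 20 were members (1.97%), against 0.570% of all such regions. In Flt1, a VEGF receptor gene, chr5:147657844-147658244 measured 12.6 and 10.7 normalized reads in KO DP against 34.0 and 26.0 in WT DP, 201 and 185 for WT SP, then 835 and 1160 for OE SP. No 2 groups overlapped, and the wild-type ratio of 2.50 was the largest of any member. A region 43.3 kb from Cldn5, which encodes a tight junction protein of endothelium, at chr16:18733122-18733522, measured 7.56 and 9.51 in KO DP, 19.4 and 26.0 in WT DP, 63.1 and 60.5 for WT SP, then 533 and 656 for OE SP. Its induced ratio of 3.17 was the largest among the named list members.

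A region 58.8 kb from Cdh5, which encodes VE-cadherin, at chr8:104042426-104042826, measured 45.3 and 32.1 in KO DP, 79.6 and 68.3 in WT DP, 80.4 and 80.3 for WT SP, then 351 and 355 for OE SP. In Esam, an adhesion molecule gene of endothelium, chr9:37527827-37528227 measured 73.0 and 51.1 in KO DP, 113 and 112 in WT DP, 119 and 117 for WT SP, then 232 and 251 for OE SP. In Notch1, a receptor gene of arterial and blood-forming endothelium, chr2:26496469-26496869 measured 23.5 and 15.5 in KO DP, 37.9 and 38.6 in WT DP, 49.9 and 37.7 for WT SP, then 77.3 and 108 for OE SP. In these 3 regions the wild-type groups differed little beside the induced change. The remaining endothelial members lay at Sox17, a factor of arterial endothelium, and at 2 sites of Flt4, the VEGF receptor of lymphatic vessels. At Sox17, chr1:4496429-4496829 measured 107 and 119 in KO DP, 202 and 181 in WT DP, 265 and 249 for WT SP, then 409 and 637 for OE SP. Both Flt4 regions had a WT SP mean below the WT DP mean, with wild-type ratios of -0.67 each.

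Over the 571 tested regions of the endothelial list, limma called 15 lower and 10 higher in KO DP, where 2.21% and 1.72% of all regions were. It called 182 higher and 140 lower in OE SP, where 16.6% and 31.9% were. Few endothelial regions were thus called low in KO DP, and the list's median knockout ratio was -0.10 beside -0.11 over all regions with a WT DP mean of at least 20. Its median induced ratio was -0.12 beside -0.35.

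In the hematopoietic list, 2 of 241 regions were members (0.830%). Besides the Itga2b start, a region 6.26 kb from Tal1, a master regulator of blood formation, at chr4:115049762-115050162, measured 20.2 and 22.6 in KO DP, 41.7 and 40.4 in WT DP, 84.5 and 75.3 for WT SP, then 323 and 445 for OE SP. No 2 groups overlapped. Of the list's 319 tested regions, 1 was called lower and 3 higher in KO DP, where 2.21% and 1.72% of all regions were. In OE SP, 78 were called higher and 89 lower, where 16.6% and 31.9% of all regions were.

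**Figure D5:**
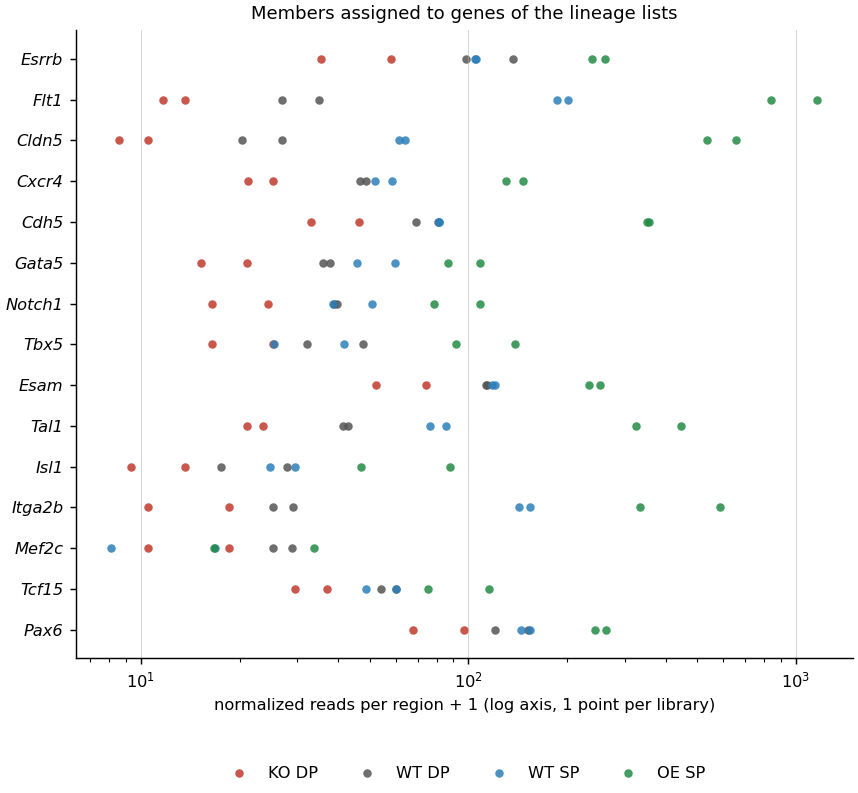
Normalized reads per region + 1 on a log axis for 15 members assigned to lineage list genes, with 1 point per library and 1 row per region, named by its gene. Both KO DP points lie left of both WT DP points in every row, and the OE SP points lie right of both WT SP points in every row but that of Mef2c, where an OE SP library reaches down to a WT SP library.

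In the cardiac list 4 of 363 regions were members (1.10%). A region 29.7 kb from Tbx5, a limb and heart factor gene, at chr5:119766445-119766845, measured 24.3 and 15.5 in KO DP, 31.1 and 46.7 in WT DP, 24.4 and 40.6 for WT SP, then 138 and 90.7 for OE SP. A region 1.47 kb from Gata5 (induced ratio 0.84), 1 in Isl1 (1.20) and 1 near Mef2c (0.83) completed them. The Mef2c region was the list member whose OE SP libraries, at 32.8 and 15.8, overlapped those of WT SP, at 7.12 and 15.9. Of the 431 tested cardiac regions, 41 were called higher and 242 lower in OE SP, where 16.6% and 31.9% of all regions were. In KO DP, 15 were called lower and 8 higher, where 2.21% and 1.72% of all regions were.

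The other lists held 1 member or none. A region 35.1 kb from Esrrb, a pluripotency factor gene, at chr12:86556729-86557129, measured 57.1 and 34.5 in KO DP, 136 and 97.0 in WT DP, 104 and 104 for WT SP, then 260 and 236 for OE SP. A region 97.8 kb from Cxcr4, a chemokine receptor gene kept in the endoderm list, measured 24.3 and 20.2 in KO DP, 47.6 and 45.8 in WT DP, 50.9 and 57.5 for WT SP, then 129 and 146 for OE SP. Regions near Tcf15, a paraxial mesoderm factor gene, and Pax6, a neural factor gene, had the smallest induced ratios of the named list members, 0.77 and 0.75. The smooth muscle and mesenchyme list had 0 members among 155 regions and the housekeeping list 0 among 92.

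Most members lay away from gene ends. Within 1 kb of either end of a protein-coding gene lay 39 members (5.43%), against 14.3% of the 126019 regions, 7.98% of the knockout-low-only and 6.95% of the induced-only regions. The median distance to a gene end was 22.9 kb, against 16.7 kb, 25.1 kb and 20.2 kb in the same order. Inside a gene lay 370 members (51.5%), and 64 (8.91%) had no gene within 100 kb. The whole set thus had a distal placement like that of the other regions that met 1 of the limits, and no test was made of it.

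The members were spread over 593 nearest genes and 20 chromosomes. Per 1000 background regions there were 8.78 members on chromosome 6, 7.39 on 17 and 7.07 on the rest of chromosome 4, down to 2.97 on X. Runs with gaps of up to 50 kb were few, with 626 members alone, 37 pairs, 3 runs of 3, 1 of 4 and 1 of 5. The run of 5 lay over 37.9 kb at Grik3, a glutamate receptor subunit gene, among 13 background regions.

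Genes with at least 3 members numbered 12. Grik3 had 5 of 66 background regions, St6galnac3 4 of 70 and Pls3 4 of 10. Further glutamate receptor genes, Grin2b (3 of 25) and Grid1 (3 of 47), were among them, as were Cdh4 (3 of 74), a cadherin gene, Ablim1 (3 of 33), an actin-binding protein gene, Mgll (3 of 32), a lipase gene, Susd1 (3 of 16), Vps50 (3 of 8) and Gm826 (3 of 12). The ratios at Grik3 ran from -0.76 to -1.19 in KO DP and from 0.85 to 1.17 in OE SP. In Vps50 and Gm826 a member turned on 1 OE SP library. The Vps50 region chr6:3557434-3557834 measured 132 and 48.6 in OE SP beside 42.7 and 59.5 in WT SP, and the Gm826 region chr2:160328951-160329351 measured 54.7 and 173 beside 63.1 and 65.4.

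Between the wild-type groups the members did not move one way. The ratio of WT SP over WT DP had a median of 0.04 over members, equal to the 0.04 of the 126019 regions, and ran from -2.23 to 2.50. It was at least 0.7 in 106 members (14.8%), where 6.71% of the background regions were, and at most -0.7 in 81 (11.3%), where 13.7% were. In induced-only regions 17.6% and 7.06% passed these values, and in knockout-low-only regions 2.47% and 26.8%. WT DP and WT SP both entered the choice of members, so these are values side by side. Limma called 94 members higher (13.1%) and 53 lower (7.38%) in WT SP, where 6.20% and 8.12% of all regions were. Both counts fell without any 1 library of WT DP, WT SP or KO DP and rose without either library of OE SP. So did the counts over all regions. Fitting WT SP and WT DP alone called 172 members higher and 114 lower, where 37453 and 25969 of all 167573 regions were.

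The group means rose in the order KO DP, WT DP, WT SP and OE SP in 378 members (52.7%). The rule set the first and last steps of this order. The middle step, WT SP above WT DP, was met by 53.0% of the 126019 regions, near the share of members. In 261 members (36.4%) no 2 successive groups overlapped, and the share of all regions that did so was not counted. In 285 members WT SP lay at or below WT DP but above KO DP, with OE SP highest. OE SP was at or below WT DP in 36 members, and WT SP at or below KO DP in 48. In those 48 the low level of WT SP matched or passed that of the knockout cells.

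The extremes show both kinds. Beside Flt1 and Itga2b, the member with the next largest rise from WT DP to WT SP was at chr18:55107032-55107432, with no gene within 100 kb, and measured 22.7 and 20.2 in KO DP, 38.8 and 40.4 in WT DP, 244 and 227 for WT SP, then 700 and 1022 for OE SP. In Enox2, an oxidase gene, chrX:49074942-49075342 measured 16.8 and 19.0 in KO DP, 32.03 and 33.2 in WT DP, 4.07 and 1.98 for WT SP, then 10.9 and 15.8 for OE SP. Near Bach1, a heme-binding repressor gene, chr16:87750887-87751287 measured 21.0 and 14.3 in KO DP, 34.0 and 32.3 in WT DP, 4.07 and 8.92 for WT SP, then 11.7 and 18.4 for OE SP. At chr2:147772675-147773075, with no gene within 100 kb, the values were 10.1 and 10.7, 24.3 and 21.6, 5.09 and 2.97, and 13.1 and 9.20 in the same order. In these last 3 regions the induced cells rose from a very low WT SP level and stayed below WT DP in every library.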

How the data were processed

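Chromatin accessibility was measured by ATAC-seq in 8 libraries of 4 groups. Per the labels' protocols, 50000 live cells each were taken through Omni-ATAC and sequenced as 75 bp paired ends. The deposited values are a signal, normalized reads per region. The submitters' processing notes name Bowtie2, MACS2 and DiffBind 3.14.1, and the build mm10. The sources used here do not give their roles, or the Tn5 shift, duplicates, peak calling and scaling, which could move ratios of low regions. Every value was a whole multiple of 1 step per library within 0.01, and the reads so recovered served edgeR 4.0.16 (quasi-likelihood) and DESeq2 1.42.0 as alternatives.

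Testing used limma 3.58.1 (R 4.3.3) on log2(value + 5) in 167573 regions whose mean was 10 or more, with 4 group means in 1 fit, an empirical Bayes trend, 4 residual and 8.15 prior degrees of freedom, two-sided, and Benjamini-Hochberg adjustment over all regions. The fit was tested on simulated data in which all libraries had the same spread setting. Such data do not check the fit where groups differ in spread. Genes came from a RefSeq table of GRCm38.p6, by the nearest protein-coding span within 100 kb. Promoter windows of 300 bases came from RefSeq, and motifs of other regions were not analysed here. Named were the 10 members with the largest smaller change, up to 5 per gene list, genes with at least 3 members, regions at the limits, at 0 reads and at the wild-type extremes, and 5 members that kept both calls. Other Flt4, Sox17, Gm40441, Gm51752, Pls3, Rapgef5, Dnah11, Armt1 and Hdgfl3 members, and the promoters printed beside that of Itga2b, were chosen after their values were seen. A result for 1 gene with at least 3 members is not reported here. The members and lists were chosen with earlier results of these data known. The labels name no molecular identifiers, so read pairs copied by PCR may be counted more than once.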

Additional observations from a re-analysis of the deposited data

How the results depend on the processing

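The count of members was 718. It stayed within 1.5 times under the 3 rescalings (771, 788 and 803) and with the chromosome 4 block kept (763), and was 1100 with a pseudocount of 1, 393 with 10, 130 with limits of 1.0 and 181 with a WT DP minimum of 50. Without 1 library it ran from 727 to 1084. Members called lower in KO DP numbered 246, but 693 when only the compared groups were fitted and 79 with DESeq2, and 28 to 700 without 1 library. The lowest counts came without WT DP replicate 1 (29), WT DP replicate 2 (28), KO DP replicate 1 (42) or KO DP replicate 2 (28), and the highest without OE SP replicate 1 (699) or replicate 2 (700). Without WT SP replicate 1 or 2 it was 103 or 104. Members called higher in OE SP numbered 670, and 491 to 714 under every alternative run. Members called higher in WT SP than in WT DP numbered 94, with 172 for the compared groups alone, 60 with DESeq2 and 28 to 170 without 1 library. Those called lower numbered 53, with 114, 29 and 8 to 108, and 86 after rescaling on the 10000 highest regions. Gene ends within 2.5 kb took in 74 members in place of 39. Among named regions the induced ratio changed sign in 2, the Vps50 region (-0.0496 without OE SP replicate 1, 1.304 without replicate 2) and the Gm826 region (-0.21 without OE SP replicate 2, 1.37 without replicate 1). Of the 69 named regions, 30 were called lower in KO DP and 66 higher in OE SP. The former lost 16 to 19 of these calls without a library of KO DP or WT DP, and 12 with DESeq2.

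Over all regions, rises were 34.2% of calls between OE SP and WT SP as deposited and 47.9% after median-of-ratios rescaling, where the median over regions went from -0.22 to -0.0037. They were 43.8% and 52.7% between KO DP and WT DP, and 43.3% and 36.1% between WT SP and WT DP. The titles number replicates alike across groups, and the deviations of same-numbered libraries correlated by at most 0.06 between groups. The labels do not say whether same-numbered libraries share a culture, day or batch, and this correlation cannot decide it. With the replicate block, 211 members were called lower in KO DP, 673 higher in OE SP, and 89 higher and 54 lower in WT SP. The search of CCGGAA over member sequences was not run for want of a genome, and promoter windows, chosen after seeing the data, took its place (4 genes, 3 in the central 200 bases). Leaving out members in low stretches was also chosen after seeing the data. The median region held 27.0 to 42.0 reads in a library, and members with a WT DP mean near 20 rest on few reads.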
